A study of Mus musculus with 12 samples.

Results

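The interferon-inducible GTPases were followed through regeneration of mouse tibialis anterior (TA) muscle, as 7 genes out of 19752 measured. They comprised 5 guanylate-binding proteins (GBPs: Gbp2b, Gbp3, Gbp4, Gbp7 and Gbp8) and 2 immunity-related GTPases (IRGs: Iigp1 and Irgm1). Members were chosen by family name, with earlier results of these data in view, and a gene was kept where the array had a transcript cluster (a set of probes summarised to 1 value) of its own. The rule settled ties between clusters by their average level, which did not arise, since each of the 7 had 1 cluster. Of 10 genes listed, 3 were dropped: Gbp2, whose cluster also lists Gbp2b, Gbp6, whose cluster lists 6 GBP genes, and Igtp, whose cluster also lists Irgm2. Near-identical family genes can hybridise to each other's probes, so values of single GBPs, above all Gbp2b, Gbp4 and Gbp8, which also appear in those shared clusters, are uncertain as measures of 1 gene.

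RNA of whole TA muscle from C57BL/6 mice aged 8 weeks had been hybridised to 12 arrays, 3 in each of 4 groups. On day 0 every mouse received cardiotoxin, a snake venom toxin that destroys muscle fibres, in the TA, and every mouse was dosed with diphtheria toxin on alternate days. Foxp3-DTR+ mice carry the receptor for this toxin under control of Foxp3, the transcription factor that defines regulatory T (Treg) cells, and Foxp3-DTR- mice do not. Mice were given either AREG (amphiregulin, which acts on the EGF receptor) or the vehicle PBS, injected into the muscle on day 0 and into the peritoneum on alternate days. Foxp3-DTR+ muscles were taken on day 8, after AREG in 3 arrays and after PBS in 3, and Foxp3-DTR- muscles on day 4, again 3 and 3. Comparisons of treatments and of days therefore share arrays. Day and genotype changed together, so that time after injury and loss of the receptor-bearing cells cannot be told apart in a comparison of the days. Nothing in the labels ties each array to a separate animal, and p-values measure only the spread between these samples.

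Median intensity per array lay between 134 and 143. All 10 muscle fibre markers were above the median level of all genes, and the mean of this list lay between 13.18 and 13.42 on the log2 scale in every array. Foxp3 itself did not separate the genotypes: its log2 intensities were 6.58, 6.75 and 6.66 with AREG and 6.51, 6.49 and 6.65 with PBS at day 8 in Foxp3-DTR+ mice, against 6.73, 6.51 and 6.57 with AREG and 6.67, 6.52 and 6.51 with PBS at day 4 in Foxp3-DTR- mice. In whole muscle this cluster therefore gave no check of the depletion, which is taken from the labels.

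GBPs and IRGs are GTPases of cell-autonomous immunity. Interferon-gamma from T and natural killer (NK) cells acts through promoter elements called GAS sites and induces the transcription factor IRF1, while type I interferons act mainly through related elements called ISREs. The induced GTPases assemble on vacuoles and membranes that hold intracellular pathogens, and macrophages, endothelium, fibroblasts and many other cells make them. Among the IRGs, effectors such as Iigp1 (Irga6) attack the vacuole, and Irgm1, a regulator, holds effectors inactive on the cell's own membranes and is linked to autophagy.

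Promoter sequences are given because all 7 members differed in the same direction between the days, a difference known when the family was chosen. Sequence from the RefSeq promoter table (GRCm38.p6) was used for 4 of the 7 members. The promoters of Gbp4, Gbp8 and Iigp1 were not searched, so nothing is said of their motifs. The 250 bases before the transcription start are printed 5′ to 3′ on the gene's strand, with motif matches in capitals. The motifs searched were the GAS letters TTCNNNGAA, which read the same on both strands, and an ISRE core GAAANNGAA, which reads TTCNNTTTC on the other strand. Both share the letters GAA or TTC and so can overlap. The window of Gbp2b lies at chr3:142594597-142594846 on the plus strand, Gbp3 at chr3:142559794-142560043 on the plus strand, Gbp7 at chr3:142530086-142530335 on the plus strand and Irgm1 at chr11:48871421-48871670 on the minus strand.
Gbp2b: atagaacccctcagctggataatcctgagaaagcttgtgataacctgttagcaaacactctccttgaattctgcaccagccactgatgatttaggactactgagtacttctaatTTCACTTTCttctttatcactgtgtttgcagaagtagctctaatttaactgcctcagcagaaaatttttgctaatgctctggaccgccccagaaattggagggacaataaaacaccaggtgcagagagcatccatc
Gbp3: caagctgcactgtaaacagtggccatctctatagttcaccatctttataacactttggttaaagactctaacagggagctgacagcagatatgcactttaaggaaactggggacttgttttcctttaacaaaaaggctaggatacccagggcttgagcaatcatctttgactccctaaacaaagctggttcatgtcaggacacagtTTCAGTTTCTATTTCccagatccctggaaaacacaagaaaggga
Gbp7: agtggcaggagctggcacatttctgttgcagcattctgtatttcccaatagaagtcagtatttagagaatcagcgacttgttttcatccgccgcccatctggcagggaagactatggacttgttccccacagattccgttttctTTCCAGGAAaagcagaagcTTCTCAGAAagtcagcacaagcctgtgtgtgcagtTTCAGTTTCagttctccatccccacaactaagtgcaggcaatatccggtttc
Irgm1: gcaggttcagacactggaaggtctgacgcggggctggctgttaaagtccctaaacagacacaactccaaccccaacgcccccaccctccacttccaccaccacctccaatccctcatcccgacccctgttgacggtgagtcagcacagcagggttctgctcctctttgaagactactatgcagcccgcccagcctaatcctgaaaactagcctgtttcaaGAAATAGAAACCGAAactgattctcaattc

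Each of these 4 members had at least 1 match to the ISRE core in a window before a start, against 7.13% of the 32851 promoters searched. In Gbp3 a pair of overlapping matches lay 44 to 30 bases before the start, and in Irgm1 an overlapping pair lay 30 to 16 bases before it. A later start of Gbp3 in the table had 0 matches to either motif in its window. Gbp7 alone of the 4 held GAS matches, TTCCAGGAA and TTCTCAGAA, with an ISRE core match downstream of both, against 7.02% of all promoters with a GAS match. Among other GBP and IRG genes searched in the same way, Gbp5, Gm12250, Irgm2, Tgtp1 and Tgtp2 also held both motifs. Ifi47 and Irgq held neither. A match describes letters in the window, and binding was not measured. Which interferon acted on these genes was not tested, and the counts of GAS and ISRE core matches do not name it.

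The 7 GTPases were far higher at day 8 in Foxp3-DTR+ muscle than at day 4 in Foxp3-DTR- muscle, with either treatment. In bulk muscle fewer cells of a type and less RNA per cell cannot be told apart. With PBS the log2 change ran from 2.09 ± 0.24 for Gbp3 to 4.42 ± 0.23 for Iigp1 (SE of the fit, n = 3 per group), or 4.25-fold to 21.4-fold. With AREG it ran from 2.06 ± 0.26 for Gbp8 to 4.52 ± 0.23 for Iigp1, or 4.17-fold to 22.9-fold. In the fit of all genes 7 of 7 were called higher in the PBS groups, where 1.19% of all genes were, and 7 of 7 in the AREG groups, where 0.527% were. A gene is called where limma's p, adjusted over all 19752 genes, was under 0.05. For each member the lowest of the 6 day 8 arrays lay above the highest of the 6 day 4 arrays. Groups without overlap and higher at day 8 were found for 9.17% of all genes with PBS and for 4.20% with AREG. The family was put forward with this difference already known, so these counts describe it and support nothing further.

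**Figure D1:**
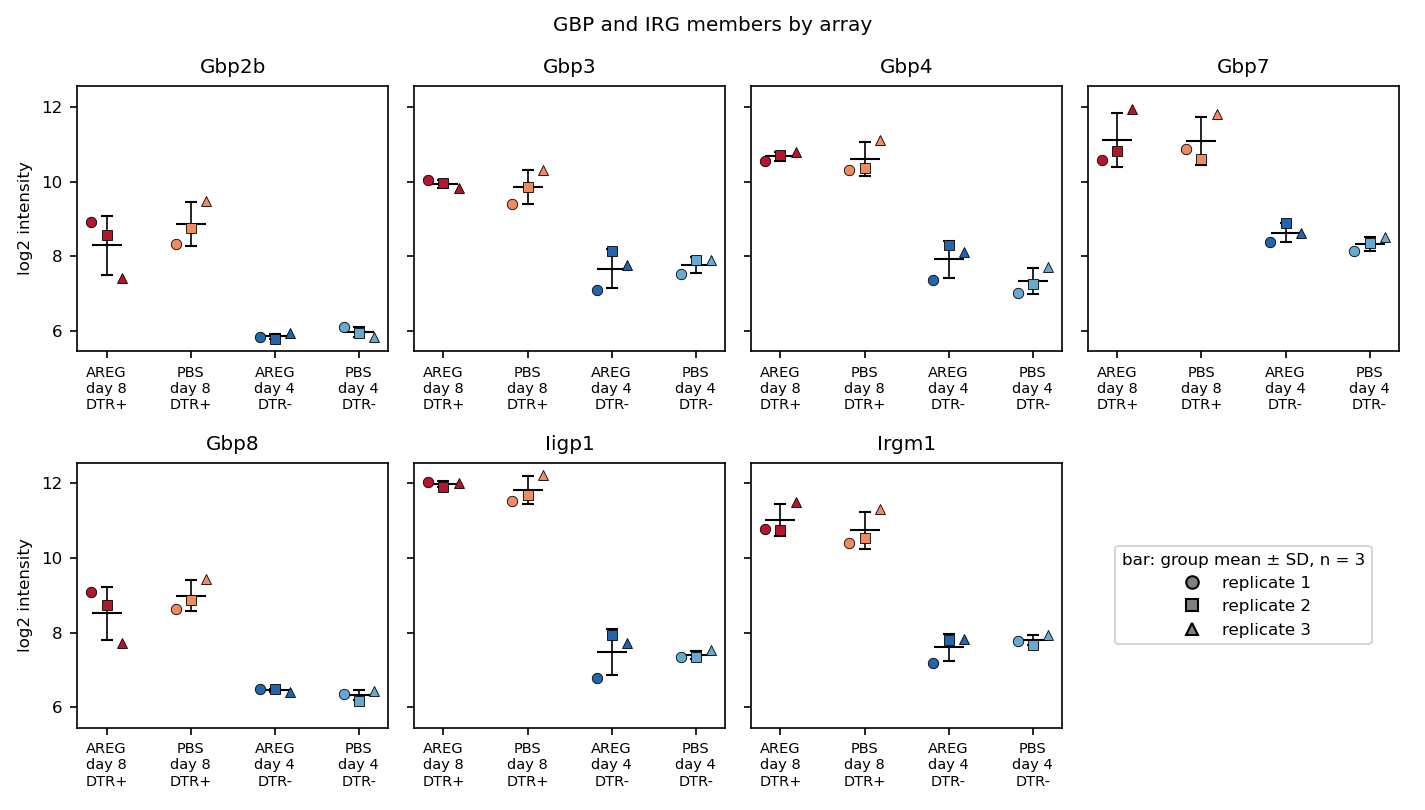
Log2 intensity of the 7 members in each of the 12 arrays, with the group mean and SD as a bar (n = 3). In every panel the 6 day 8 Foxp3-DTR+ arrays lie above the 6 day 4 Foxp3-DTR- arrays, by a gap of 1.25 (Gbp8) to 3.61 (Iigp1), and AREG and PBS groups of 1 day overlap.

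Iigp1, the effector IRG that loads onto parasite vacuoles, had the largest change of the 7. Its log2 intensity was 12.04, 11.91 and 12.02 with AREG at day 8, against 6.78, 7.93 and 7.71 with AREG at day 4. With PBS it was 11.54, 11.68 and 12.24 at day 8, against 7.33, 7.34 and 7.53 at day 4. The days were separated by a gap of 3.61, while all 6 arrays of day 8 lay within 0.70 and those of day 4 within 1.15. The 95% interval of its change with PBS, 3.92 to 4.92, lay above the intervals of the other 6 members, of which the uppermost, for Gbp4, reached 3.80. With AREG its interval was 4.02 to 5.01, and the next highest, for Irgm1, reached 3.93. These intervals are not adjusted for the number of genes.

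Irgm1, the regulatory IRG, differed by 3.41 ± 0.24 with AREG and by 2.95 ± 0.24 with PBS. It had 10.78, 10.75 and 11.51 with AREG at day 8, against 7.19, 7.79 and 7.83 with AREG at day 4. It had 10.40, 10.53 and 11.31 with PBS at day 8, against 7.78, 7.68 and 7.95 with PBS at day 4. At day 8 replicate 3 of each treatment stood above the other arrays, and the treatments overlapped.

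Among the GBPs, Gbp4, which in mouse cells has been tied to restraint of IRF7 signalling, had the largest change with PBS, 3.28 ± 0.25, and a change of 2.76 ± 0.25 with AREG. Its log2 intensity was 10.55, 10.70 and 10.79 with AREG at day 8, against 7.36, 8.29 and 8.11 with AREG at day 4. With PBS it was 10.32, 10.36 and 11.12 at day 8, against 7.01, 7.25 and 7.70 at day 4. Gbp7, which works with the phagocyte oxidase and autophagy proteins in macrophages, differed by 2.49 ± 0.32 with AREG and by 2.77 ± 0.32 with PBS. It had 10.58, 10.82 and 11.95 with AREG at day 8, against 8.38, 8.89 and 8.61 with AREG at day 4. With PBS the values were 10.86, 10.60 and 11.82 at day 8, against 8.12, 8.34 and 8.51 at day 4. Replicate 3 of each treatment was again the highest at day 8.

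Gbp3 had the smallest change with PBS (2.09 ± 0.24) and one of 2.28 ± 0.24 with AREG. Its values were 10.04, 9.97 and 9.82 with AREG at day 8, against 7.08, 8.12 and 7.77 with AREG at day 4. With PBS they were 9.40, 9.86 and 10.30 at day 8, against 7.51, 7.89 and 7.89 at day 4. Gbp2b (formerly Gbp1), a GBP that carries a lipid anchor, and Gbp8 had like profiles, although RefSeq places them on different chromosomes. Gbp2b had 8.91, 8.57 and 7.40 with AREG at day 8, against 5.83, 5.78 and 5.93 with AREG at day 4. With PBS it had 8.33, 8.75 and 9.49 at day 8, against 6.10, 5.94 and 5.83 at day 4. Gbp8 had 9.08, 8.74 and 7.73 with AREG at day 8, against 6.48, 6.48 and 6.41 with AREG at day 4. With PBS Gbp8 had 8.64, 8.88 and 9.45 at day 8, against 6.35, 6.17 and 6.44 at day 4. Both spread over 2.08 (Gbp2b) and 1.72 (Gbp8) across the 6 arrays of day 8, against a range of 0.31 at day 4. At day 4 both were weakly detected, below the lowest array median of 134. Mean intensities there were 57.6 with AREG and 62.0 with PBS for Gbp2b, and 87.9 and 79.9 for Gbp8. Low signal may therefore limit their day 4 range and the size of their changes. Between the days Gbp2b differed by 2.44 ± 0.31 with AREG and 2.90 ± 0.31 with PBS, and Gbp8 by 2.06 ± 0.26 and 2.67 ± 0.26.

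One day 8 array separated the members. In AREG replicate 3, Gbp2b was 1.17 and Gbp8 1.02 below the mean of the 6 day 8 arrays on the log2 scale, the lowest value of each. In the same array Gbp7 was 0.84 and Irgm1 0.63 above that mean, the highest value of each. Iigp1 (0.11), Gbp4 (0.15) and Gbp3 (-0.08) stayed near their means there. Markers of leukocytes were low in this array: the mean of 12 T and NK cell markers was 0.92 below its day 8 mean, and that of 9 macrophage and monocyte markers 0.94 below. Ifng was 0.52 and the chemokine Cxcl9 0.97 below, but other interferon-inducible genes were divided in this array. Irf1 (-0.20), Gbp9 (-0.15), Gbp11 (-0.17) and Gm4951 (-0.16) were below their day 8 means, and Gm12250 (0.53) and Gbp5 (0.24) above. The checkpoint ligand Cd274 (11.26) had its highest value of the 12 arrays there. In PBS replicate 3 all 7 members were above their day 8 means, by 0.33 (Iigp1) to 0.91 (Gbp2b), and so were the T and NK list (0.67) and the macrophage list (0.58). The part of leukocyte number in these values was not tested. Without AREG replicate 3 of day 8, all 7 members were still called higher at day 8 with AREG.

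**Figure D2:**
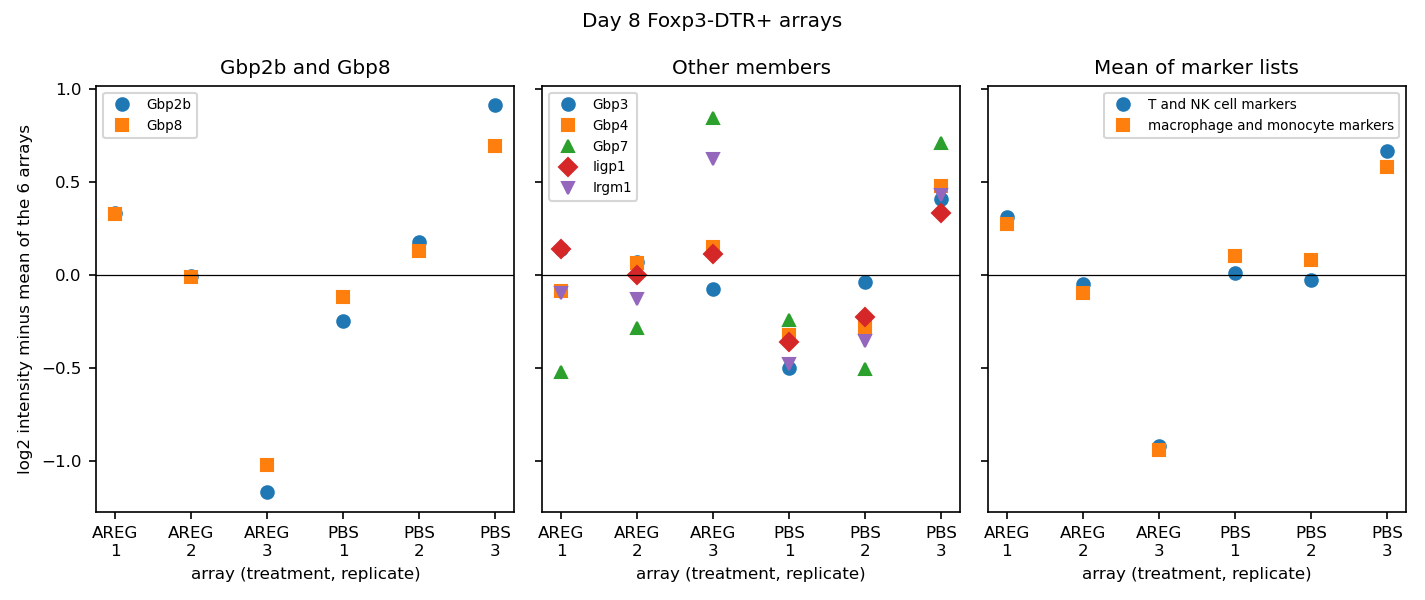
Deviation of each day 8 Foxp3-DTR+ array from the mean of all 6, in log2 intensity, for Gbp2b and Gbp8 (left), the other 5 members (middle) and the means of 2 marker lists (right). AREG replicate 3 has the lowest Gbp2b, Gbp8 and marker means (-1.17, -1.02, -0.92 and -0.94) and the highest Gbp7 and Irgm1 (0.84 and 0.63).

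AREG made no called difference to any member on either day. At day 4, 0 of 7 were called, where 2.90% of all genes were (573 genes, or 914 with the replicate number as a block), and limma gave 1 member an unadjusted p under 0.05, where 17.0% of all genes had one. At day 8, 0 of 7 were called, where 0.00506% of all genes were, and 0 had an unadjusted p under 0.05, where 7.62% of all genes did. AREG and PBS arrays of the same day overlapped for all 7 members, while 22.3% of all genes had groups without overlap at day 4 and 14.2% at day 8. The members' median log2 change was 0.07 at day 4 and 0.08 at day 8, beside medians of 0.04 and 0.0052 over all genes. The member with the unadjusted p under 0.05 was Gbp4 at day 4, with a log2 change of 0.60 ± 0.25 and an adjusted p of 0.218 in limma. It had 7.36, 8.29 and 8.11 with AREG, against 7.01, 7.25 and 7.70 with PBS, so that the lowest AREG array lay within the PBS range. Residuals of same-numbered arrays correlated at day 4, although a pairing by number is not settled. Within these pairs Gbp4 was higher with AREG in 3 of 3, by 0.35, 1.04 and 0.41. With the replicate block its adjusted p in limma was 0.062. Gbp7 was also higher in 3 of 3 pairs, by 0.25, 0.55 and 0.10, with an adjusted p of 0.217 under the block and 0.741 without it. No other member had the same sign in all 3 pairs of day 4. With array quality weights the log2 change of Gbp4 was 0.80 at an adjusted p of 0.0015 in limma, the 1 setting in which Gbp4 was called.

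For the other members the 95% intervals show the range of AREG changes compatible with the arrays. At day 8 the interval for Iigp1 was -0.33 to 0.67 around 0.17, and that for Irgm1 was -0.25 to 0.78 around 0.27. Gbp2b and Gbp8 had the lowest values with AREG at day 8, -0.56 (interval -1.22 to 0.10) and -0.47 (-1.03 to 0.09). Both moved with single arrays: without AREG replicate 3 they were -0.12 and -0.08, and without PBS replicate 3 they were -0.25 and -0.24. The difference between the AREG effects of day 8 and day 4 was called for 0 of 7 members and for 0% of all genes (2232 genes, but again 0 members, with array quality weights), and an unadjusted p under 0.05 was reached by 0 of 7 and by 5.87% of all genes. The differences ran from -0.61 ± 0.37 for Gbp8 to 0.46 ± 0.34 for Irgm1.

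**Figure D3:**
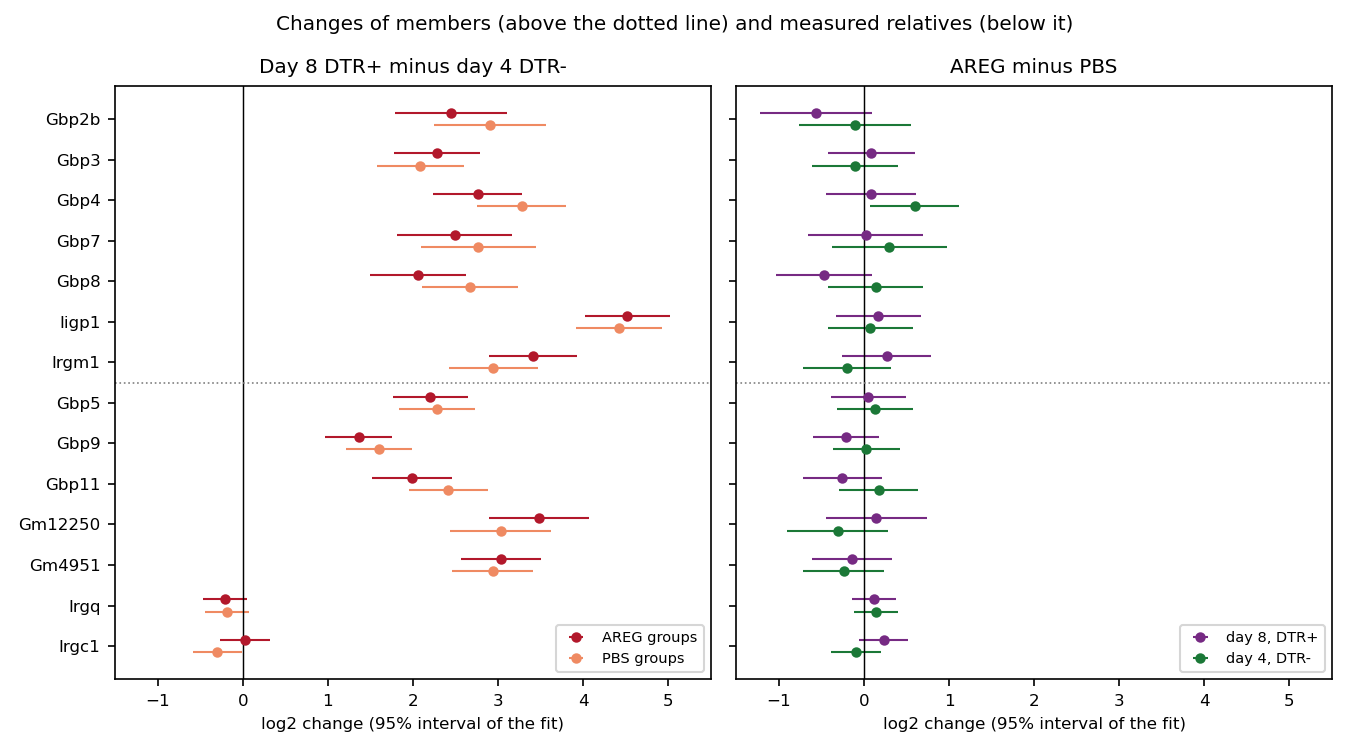
Log2 changes with their 95% intervals for the 7 members and 7 measured relatives, at day 8 Foxp3-DTR+ minus day 4 Foxp3-DTR- (left) and AREG minus PBS (right). All 7 members and 5 of the 7 relatives have estimates above 1 on the left, and on the right every member lies between -0.56 and 0.60.

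Of 14 further GBP and IRG relatives looked for, 7 had a cluster of their own. Of these, 5 were called higher at day 8 in both treatments, beside 1.19% of all genes with PBS and 0.527% with AREG. Gbp5, a GBP linked to inflammasome activation, differed by 2.21 ± 0.21 with AREG and 2.28 ± 0.21 with PBS. Gbp9 (1.36 ± 0.18 and 1.60 ± 0.18) and Gbp11 (1.99 ± 0.22 and 2.42 ± 0.22), which RefSeq lists as a transcribed pseudogene, followed. The IRGs Gm12250, named Irgb10 among its synonyms, and Gm4951, named Ifgga2, differed by 3.48 ± 0.28 and 3.03 ± 0.22 with AREG and by 3.03 ± 0.28 and 2.94 ± 0.22 with PBS. Irgq (-0.20 ± 0.12 and -0.19 ± 0.12) and Irgc1 (0.03 ± 0.14 and -0.30 ± 0.14), IRG-like genes not known as interferon targets, were not called. For AREG against PBS limma called 0 of the 7 relatives on either day, and 0 had an unadjusted p under 0.05.

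The genes that resembled the members most were sought in the upper part of the level range, from the median gene up, by correlation with the mean standardised profile of the 7 over the 12 arrays. They were Gm4951 (Pearson r = 0.995), Gbp5 (0.991), Gm12250 (0.986), Irf1 (0.985), Tap1 (0.985) and Gm12185 (0.984), which RefSeq also names Irgb2b1. These coefficients mainly reflect the gap between the days, which all 12 arrays share, and carry no test. Gm12185 differed by 5.02 with AREG and 4.37 with PBS.

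In the interferon-gamma pathway above the GTPases, the ligand, 1 kinase and 1 transcription factor were called higher at day 8 with PBS, and the receptor was not. Of 12 measured genes 3 were called higher with PBS and 2 with AREG, where 1.19% and 0.527% of all genes were. The list medians were 0.25 and 0.16, beside -0.04 and -0.06 over all genes. Irf1 differed by 1.88 ± 0.18 with AREG and 1.78 ± 0.18 with PBS. Ifng, the ligand, had 7.02, 7.04 and 6.51 with AREG at day 8, against 6.55, 6.12 and 6.25 with AREG at day 4, a change of 0.55 that was not called. With PBS it had 6.79, 7.07 and 7.77 at day 8, against 6.32, 6.21 and 6.43 at day 4, a called change of 0.89. Its receptor chains Ifngr1 (0.15 with AREG and 0.16 with PBS) and Ifngr2 (-0.33 and -0.12) were not called. The kinase Jak2 was called with PBS (0.61) and had -0.25 with AREG. Irf8, a myeloid transcription factor, was called with AREG (1.21) and had 0.45 with PBS. Its mean log2 intensity at day 8 was 9.10 with AREG and 9.12 with PBS, against 7.89 and 8.68 at day 4. Of the other genes, Jak1, Nlrc5, Pias1, Ptpn2, Socs1 and Socs3 had changes from -0.13 to 0.58 and were not called with either treatment. At day 4, AREG raised Jak2 by 0.63 (adjusted p = 0.022, limma), the only gene of this list called for AREG. Irf8 had a change of -0.78 in that comparison and was not called (adjusted p = 0.073, limma).

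Other interferon-gamma targets were also higher at day 8. Of 18 such genes, among them Socs1 of the list above, 14 were called higher with PBS, where 1.19% of all genes were. With AREG 12 were, where 0.527% of all genes were. The medians were 0.87 and 0.86. Cxcl9, which draws T cells, differed by 3.46 ± 0.28 with AREG and 3.66 ± 0.28 with PBS, the checkpoint ligand Cd274 by 2.71 and 2.81, and the peptide transporter Tap1 by 1.99 and 1.80. Type I interferon targets had fewer calls. Of 18 measured, 3 were called higher with PBS and 7 with AREG, beside the same shares of all genes. Their medians were 0.27 and 0.56. The 3 called with PBS were Stat2 (0.72), Irf9 (0.71) and Ifih1 (0.69). Ifit3, an antiviral protein, differed by 1.67 with AREG, which was called, and by 0.85 with PBS, which was not. Rtp4 had 1.11, called, and 0.51, not called. At day 4 all 18 had negative AREG changes with a median of -0.45, and Oasl2 (-0.83) and Rtp4 (-0.76) were called lower, where 2.11% of all genes were. The members had 4 positive and 3 negative changes in that comparison.

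**Figure D4:**
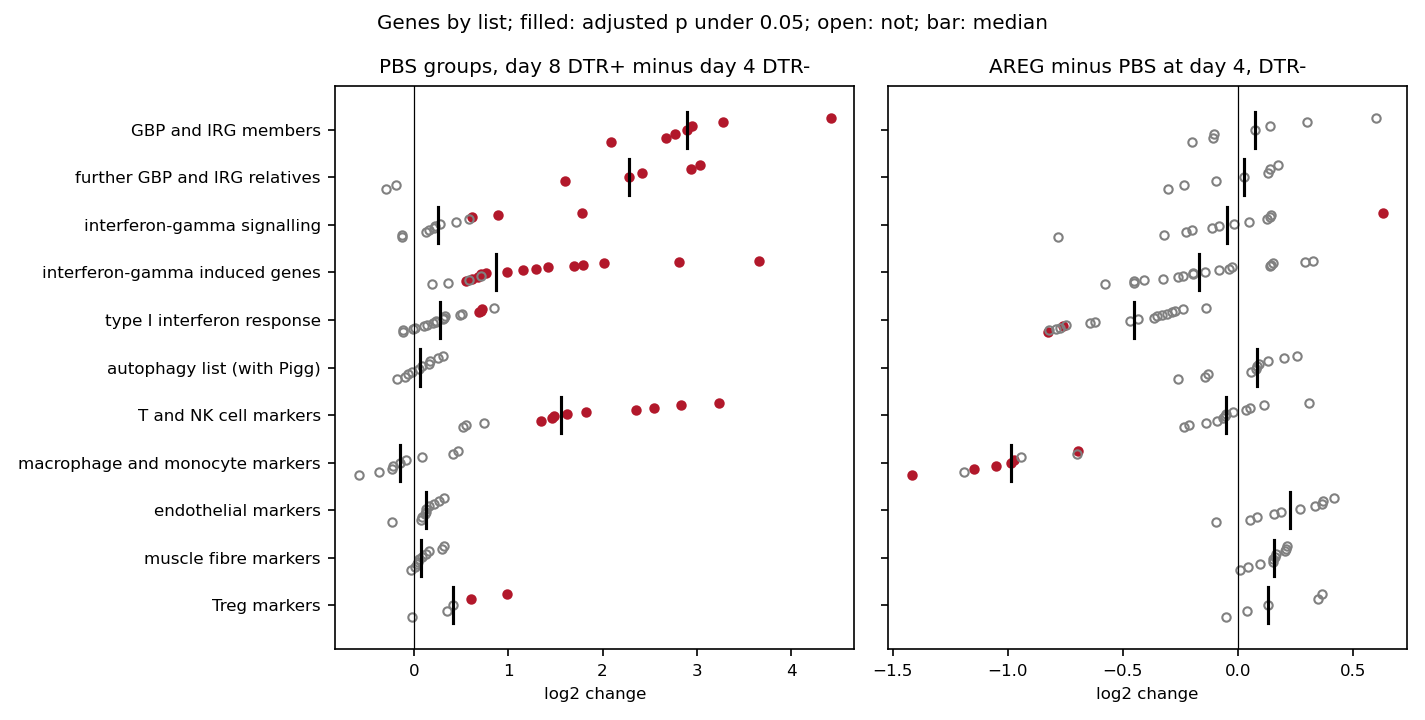
Log2 change of single genes by list in the PBS groups, day 8 Foxp3-DTR+ minus day 4 Foxp3-DTR- (left), and AREG minus PBS at day 4 (right), with the list median as a bar and called genes filled. On the left the medians are 2.90 for the members, 1.55 for T and NK cell markers and -0.15 for macrophage markers, and on the right 0.07, -0.05 and -0.99.

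Cell types that make or induce the GTPases gave these values. Of 12 T and NK cell markers 9 were called higher at day 8 with PBS, where 1.19% of all genes were. With AREG 6 were, where 0.527% of all genes were. The medians were 1.55 and 1.06. Only 3 of these 12 markers lay at or above the median level of all genes. Their mean level per array was 6.87 to 8.11 with AREG and 7.77 to 8.46 with PBS at day 8, against 6.18 to 6.38 with AREG and 6.27 to 6.33 with PBS at day 4. Nkg7, a granule protein of cytotoxic cells, differed by 2.54 with AREG and 3.23 with PBS, and Cd3e, a chain of the T cell receptor complex, by 1.08 and 1.49. These markers moved with the members between the days, and their part in the result was not tested. Of 9 macrophage and monocyte markers 0 were called between the days by limma, with medians of 0.40 with AREG and -0.15 with PBS, and 2 with AREG and 0 with PBS had an unadjusted p under 0.05. At day 4, 6 of these 9 were called lower with AREG, where 2.11% of all genes were, and the list median was -0.99. The mean of the 9 per array was 8.32 to 8.79 with AREG, against 9.31 to 9.67 with PBS. The mean of the 7 members in the same arrays was 7.01 to 7.61 with AREG, against 7.17 to 7.41 with PBS. Endothelial markers had medians of -0.10 with AREG and 0.13 with PBS between the days, and limma called 0 of 10, with 0 at an unadjusted p under 0.05.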

How the data were processed

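RNA was measured on Affymetrix Mouse Gene arrays, per the labels. The authors deposited linear intensity values, made with Affymetrix Power Tools and RMA (background correction, normalisation between arrays, 1 value per transcript cluster), per the submitters' processing notes. Their versions and the build behind the probe sets are not stated. RMA can compress changes of weakly expressed genes. Here log2 of each intensity was used, without pseudocount or filter. Clusters with 1 gene symbol (21425 of 24922) gave 19752 genes, of which 921 had several clusters and took the one with the highest mean. A RefSeq table (GRCm38.p6) was used for names and promoters.

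The linear model (limma 3.58.1, R 4.3.3, with empirical Bayes moderation) had 4 group means, 8 residual and 7.1 prior degrees of freedom, and gave two-sided p-values, adjusted by Benjamini and Hochberg's method over all genes. With 3 arrays a group an exact permutation p cannot go under 0.1, and none was run. The script was tested on simulated data. Precision is limited by the number of arrays. The members and lists were chosen with earlier results of these data known. All members were named, with all measured relatives and interferon-gamma pathway genes, and from other lists genes called or with the smallest p.

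Residuals of same-numbered AREG and PBS arrays correlated at 0.558, 0.201 and 0.511 at day 4 and at -0.198, 0.123 and -0.0033 at day 8. At day 4, AREG replicate 2 correlated more with PBS replicate 3 (0.27) than with PBS replicate 2. All other differently numbered pairs of day 4 had negative values. The numbers may therefore pair the arrays at day 4, but this is not settled, and at day 8 the values show no pairing. The main model has no block, and the replicate number as a block is an alternative. The other alternatives were leaving out each array, trend and robust options, array quality weights, quantile normalisation, a filter at the median level, a pseudocount of 32 and the mean of a gene's clusters.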

Additional observations from a re-analysis of the deposited data

How the results depend on the processing

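Between the days, 7 of 7 members were called higher in all 19 alternatives with PBS and with AREG, the replicate block included. The smallest median of their log2 changes was 2.59 with PBS (without PBS replicate 3 of day 8) and 2.40 with AREG (pseudocount of 32). For AREG against PBS at day 4, 0 members were called in 18 of 19 alternatives and 1 (Gbp4) with array quality weights, where 1 AREG array carried a weight of 5.52. At day 8 and for the difference of the effects, 0 were called in all 19. Leaving out single arrays gave 0 to 0 members called at day 4, at day 8 and for the difference, and 7 to 7 between the days. No called member changed sign, whereas the members' median change with AREG (0.07 on day 4, 0.08 on day 8) was -0.08 and -0.04 without AREG replicates 2 and 3 of day 4, and -0.09 and -0.04 without PBS replicates 1 and 2 of day 8. It reached 0.18 on day 4 without AREG replicate 1 of that day, and 0.34 on day 8 without PBS replicate 3 of that day. Each member has 1 cluster, so the mean of a gene's clusters left its values as they were. With the replicate block 914 genes in all were called at day 4, against 573 without it, and the block changed no call of a member. The count of all genes called at day 4 ranged from 9 (without AREG replicate 3 or PBS replicate 2 of day 4) to 1336 (without AREG replicate 3 of day 8) and was 5305 with array quality weights, so the shares of all genes given beside the members depend on these choices. At day 8 it was 1192 with the weights, against 1, and for the difference of the effects 2232, against 0. Between the days it ranged with PBS from 209 (without PBS replicate 2 of day 4) to 1649 (weights), against 463, and with AREG from 79 (without AREG replicate 1 of day 4) to 6676 (weights), against 142, with 458 without AREG replicate 3 of day 8.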

Other observations

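Of 5 Treg cell markers, limma called 2 higher with PBS between the days, where 1.19% of all genes were, and 0 with AREG, where 0.527% were. With AREG 1 of the 5 had an unadjusted p under 0.05. Only 1 of the 5 lay at or above the median level of all genes. Il2ra and Ctla4 were weakly detected, at percentiles 27.7 and 18.6 of the level of all genes. Il2ra, a chain of the interleukin-2 receptor, was 0.99 higher (adjusted p = 0.00016, limma) and the checkpoint receptor Ctla4 0.61 higher (adjusted p = 0.013) on the log2 scale at day 8 in Foxp3-DTR+ mice than at day 4 in Foxp3-DTR- mice with PBS, while Foxp3 (-0.02), Ikzf2 (0.35) and Tnfrsf18 (0.41) were not called. With AREG the changes of Il2ra and Ctla4 were 0.31 and 0.09. A list of 10 genes held autophagy genes and also Pigg, an enzyme of GPI-anchor synthesis that is no autophagy gene, and the counts and medians include it. Of these 10 limma called 0 in any comparison. Between the days 0 with AREG and 1 with PBS had an unadjusted p under 0.05, as did 1 for AREG against PBS at day 4, 0 at day 8 and 1 for the difference of the effects. The list had medians of 0.08 with AREG and 0.07 with PBS between the days. Among them the ubiquitin-like protein Gabarapl2, which guides the GTPases to vacuoles, differed by 0.09 with AREG and 0.30 with PBS.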
